A study of Mus musculus with 10 samples.

Results

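The 54 genes described here encode ligands and receptors of axon guidance. They were taken from a fixed list of symbols, which was chosen with earlier results of these data known. All 54 were found among the 20665 autosomal coding genes of the mouse RefSeq annotation (build GRCm38.p6, the build called mm10 in the labels). They comprise 3 Robo receptors, 3 Slit ligands, 2 netrins, 5 netrin receptors, 13 Eph receptors, 7 ephrins, 12 semaphorins, 7 plexins and 2 neuropilins. Of 76109 autosomal open-chromatin regions, 67113 had a coding gene within 100 kb, and 685 of these had a member of the list as the nearest one.

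According to the protocol, the tissue was the epithelium of the mouse cochlear duct in E13.5 embryos, peeled off with dispase and collagenase I. The titles of all 5 ATAC libraries instead read whole organ, while their cell type label names duct epithelium, so the material may hold tissue other than epithelium. ATAC-seq, in which the transposase Tn5 cuts accessible DNA, measured open chromatin in unsorted tissue of wildtype embryos (3 libraries) and of SoxC double knockout embryos (2 libraries). SoxC factors are a group of HMG-box transcription factors that includes Sox4. The labels of these ATAC libraries name neither the deleted genes nor the Cre driver, and the strain name Pax2creSoxCfl/fl stands only on a single-cell RNA library that was not used here. Sox4 was mapped by CUT&RUN, which releases DNA around an antibody-bound protein, in GFP positive epithelial progenitors sorted by FACS from p27kip1-GFP mice (3 replicates, wildtype genotype). The titles of these libraries instead read Sox4 ChIP, and no control antibody library is labelled. The comparison asked where open chromatin at these genes differed between the genotypes, and where Sox4 lay in wildtype progenitors. Nothing in the labels says whether replicates came from separate animals, so p-values measure the spread between these libraries, which may be technical.

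Guidance cues steer growing axons and migrating cells by attraction or repulsion, and most act through families of dedicated receptors. Slits bind Robo receptors, netrins bind Dcc and Unc5 receptors, ephrins bind Eph receptor kinases, and semaphorins act through plexins, with neuropilins as co-receptors for most secreted class 3 members. In the inner ear, several of these families are known for guiding spiral ganglion axons toward the sensory epithelium, and some of them also take part in epithelial and mesenchymal patterning.

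Each deposited file was a list of peaks with no read counts, so sequencing depth was unknown and libraries were compared by rank. Peaks of a library were ranked by their -log10 p, with rank 1 for the strongest, and the 50000 strongest were used to define regions. The lists were not made alike. The peak at rank 50000 had a -log10 p of 19.03, 10.51 and 8.754 in wildtype 1 to 3 but of 104 and 50.5 in knockout 1 and 2. The names of the knockout lists state a p threshold and a cap on peak number. The wildtype lists hold no X or Y peaks. Genotype and list processing therefore cannot be told apart, and a rank says where a region stands within its library, not how open it was.

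Peaks were counted near markers of the cell types that the tissue could hold. In wildtype libraries 1 to 3, the 6 epithelial markers (among them Epcam and Cdh1) had 32, 30 and 24 peaks, against 29 and 33 in the knockout libraries. The 8 spiral ganglion neuron markers had 31, 29 and 33 wildtype peaks against 25 and 25, the 6 prosensory markers 32, 29 and 30 against 24 and 24, and the 6 otic mesenchyme markers 9, 15 and 16 against 13 and 13. The mesenchyme sum joins genes that went opposite ways. Twist1 (1, 1 and 4 against 0 and 0) and Prrx1 (0, 4 and 3 against 0 and 0) had fewer knockout peaks, and Col1a2 (2, 4 and 4 against 6 and 7) had more. The 5 glia and melanocyte markers had 22, 26 and 19 against 28 and 32, and the 6 blood, endothelium and macrophage markers had 20, 20 and 20 against 19 and 21. The macrophage receptor gene Csf1r had 0 peaks in all 5 libraries, and no other marker did. All 6 lists thus had peaks, non-epithelial ones included, and a peak near a marker does not show that the cell type was present.

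Promoter sequence was shown for genes whose start site lay in a region that changed rank between genotypes. Of 58 RefSeq promoter windows for 45 members, 44 overlapped an open region. Of these, 14 overlapped one whose rank number was larger in knockout (further down the list) and 2 one further up (Epha2 and Plxnb2). Epha7 and Robo2 each had 2 of the 14 windows, so the genes were fewer than the windows. The 2 Epha7 windows lay on the same region. Such shares were not computed for the windows of all coding genes, so these window counts only describe the list. The 250 bases upstream of the start are given 5′ to 3′ for the 5 genes with the largest shifts down among the first listed starts and for Epha2, from RefSeq GRCm38.p6, with CpG dinucleotides in capitals. They lie at chr4:28812881-28813130 (Epha7, plus strand), chr5:84417383-84417632 (Epha5, minus strand), chr5:17574566-17574815 (Sema3c, plus strand), chr5:12382916-12383165 (Sema3d, plus strand), chr5:47982905-47983154 (Slit2, plus strand) and chr4:141300971-141301220 (Epha2, plus strand).
Epha7: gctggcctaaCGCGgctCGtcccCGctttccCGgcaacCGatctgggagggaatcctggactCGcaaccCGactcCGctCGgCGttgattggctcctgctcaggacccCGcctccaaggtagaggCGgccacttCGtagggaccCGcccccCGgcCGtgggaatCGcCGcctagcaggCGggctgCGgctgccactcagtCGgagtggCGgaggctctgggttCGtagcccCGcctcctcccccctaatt
Epha5: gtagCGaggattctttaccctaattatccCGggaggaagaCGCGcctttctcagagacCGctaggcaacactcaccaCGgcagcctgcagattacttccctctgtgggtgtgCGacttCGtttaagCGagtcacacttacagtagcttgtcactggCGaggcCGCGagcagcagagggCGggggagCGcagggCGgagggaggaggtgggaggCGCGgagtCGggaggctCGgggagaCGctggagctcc
Sema3c: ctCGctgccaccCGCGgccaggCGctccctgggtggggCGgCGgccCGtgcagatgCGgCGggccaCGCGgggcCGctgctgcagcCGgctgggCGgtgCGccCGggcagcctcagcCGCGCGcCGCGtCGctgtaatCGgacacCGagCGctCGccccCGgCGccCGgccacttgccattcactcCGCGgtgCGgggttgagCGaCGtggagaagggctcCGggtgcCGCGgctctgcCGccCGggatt
Sema3d: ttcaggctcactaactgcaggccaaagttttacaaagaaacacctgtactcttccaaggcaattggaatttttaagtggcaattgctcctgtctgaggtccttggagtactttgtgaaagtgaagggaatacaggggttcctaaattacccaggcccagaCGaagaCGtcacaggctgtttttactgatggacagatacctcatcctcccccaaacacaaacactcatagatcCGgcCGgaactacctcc
Slit2: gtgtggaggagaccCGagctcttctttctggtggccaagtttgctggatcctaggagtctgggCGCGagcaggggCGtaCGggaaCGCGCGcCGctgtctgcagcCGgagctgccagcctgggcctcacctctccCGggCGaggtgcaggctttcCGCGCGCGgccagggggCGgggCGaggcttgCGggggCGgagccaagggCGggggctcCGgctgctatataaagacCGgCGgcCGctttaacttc
Epha2: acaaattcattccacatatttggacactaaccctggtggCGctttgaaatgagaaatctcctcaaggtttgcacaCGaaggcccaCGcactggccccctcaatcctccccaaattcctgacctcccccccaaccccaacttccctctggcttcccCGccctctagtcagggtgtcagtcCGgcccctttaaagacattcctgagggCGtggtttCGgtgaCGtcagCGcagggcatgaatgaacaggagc
The CpG count was 39 in Sema3c, 25 in Epha7, 25 in Slit2, 20 in Epha5, 9 in Epha2 and 4 in Sema3d. The median was 16 over the 58 member windows and 10 over the 20085 windows of all autosomal coding genes. The promoters that stood further down in knockout thus ranged from CpG-rich to CpG-poor. None of the 6 held AACAAAG or AACAATG, the heptamers commonly bound by Sox proteins, on either strand. Among all 58 member windows 3 held one of these heptamers (Sema6d, Efna4 and Ephb1), and among all 20085 windows 6.87% did. No stretch of 7 bases can match both heptamers.

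Across the whole list, regions of the guidance genes stood further down in the knockout libraries more often than further up. A rank fit with limma covered regions at rank 100000 or better in all 5 libraries, 425 member regions among 49086, with Benjamini-Hochberg adjustment over all of them at 0.05. It called 93 member regions further down in knockout (21.9%), where 14.9% of all tested regions were called. It called 21 further up (4.94%), against 14.2% of all. The median difference in log2 rank, knockout minus wildtype, was 0.37 over the 425 member regions and 0.01 over all 49086. A difference of 1 means a rank number 2 times as large. The called differences ran from 0.93 to 4.35 downward, with a median of 1.37, and from -1.01 to -3.15 upward, with a median of -1.22. On log2 of -log10 p, each library centred on its median, 133 member regions were called lower and 19 higher, where the calls over all regions split into 10348 and 4807 and their median shifted by 0.18. Without knockout 1 the rank fit called 42 further down and 4 further up, and without knockout 2 it called 58 and 9.

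At least 1 region further down was found at 32 of the 54 genes, at least 1 further up at 17, both at 6 and neither at 11 (Robo3, Ntn1, Epha1, Efna1, Efna4, Efnb3, Sema3f, Sema4c, Sema4d, Plxnb1 and Plxnd1). Tested regions per gene ran from 1 at Epha8 to 26 at Robo1, so some genes had more occasions for a call. The share of all coding genes with such a region was not computed, so these numbers only describe the list. All knockout ranks were worse than all wildtype ranks in 175 member regions (41.2%, against 28.7% of all tested) and better in 50 (11.8%, against 28.2%). Raw -log10 p values were not used for calls, since their scale differed between the lists. Among the 93 regions further down, both knockout values lay above every wildtype value in 52 and below every wildtype value in 1. Both lay above in all 21 regions further up.

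**Figure D1:**
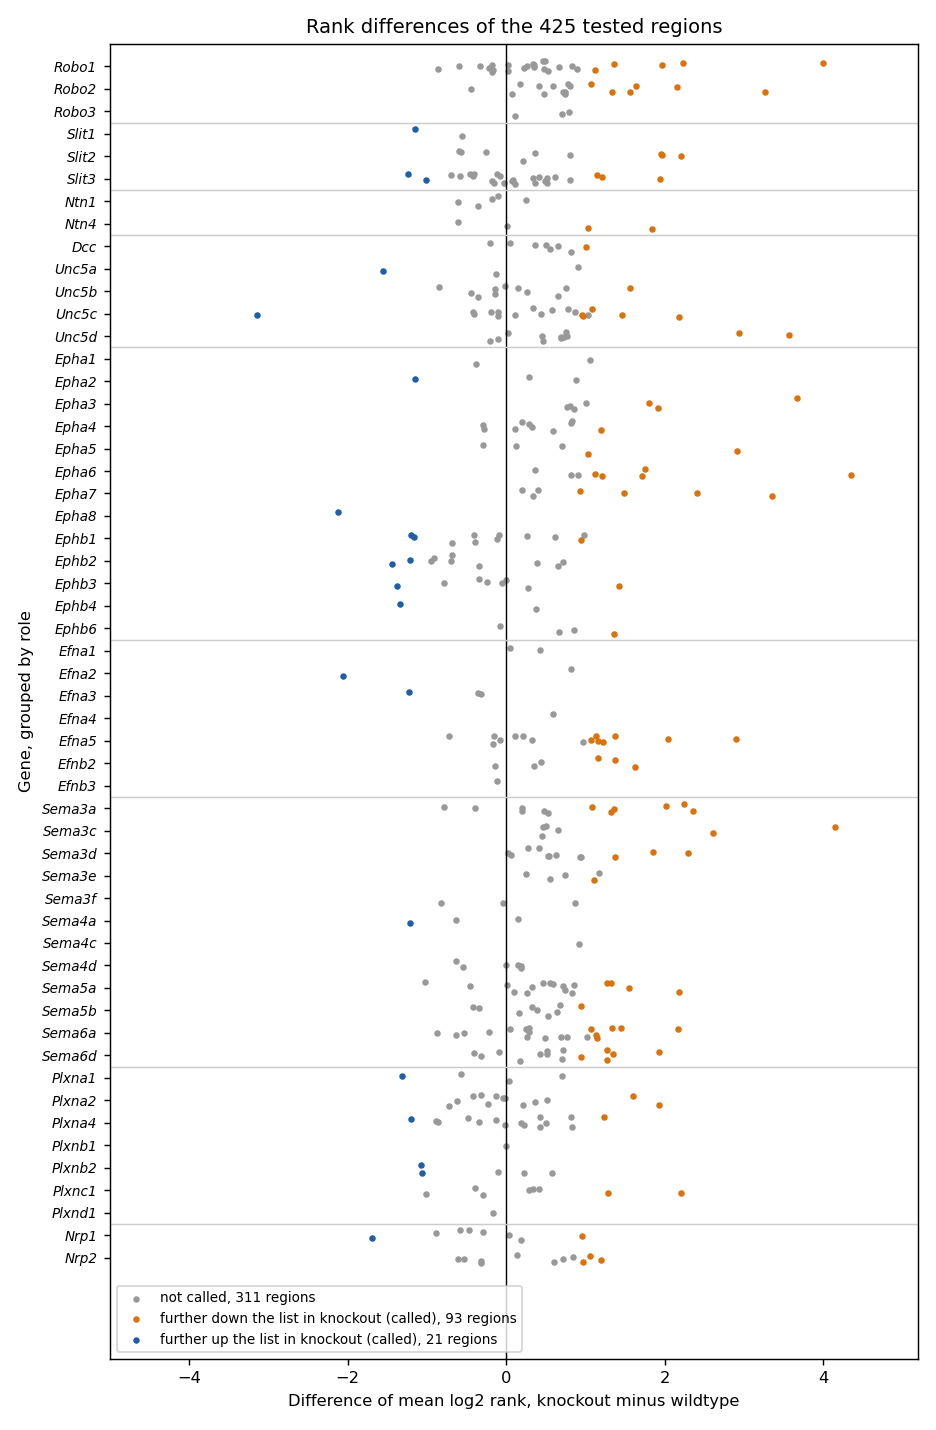
Difference of mean log2 rank (knockout, n = 2, minus wildtype, n = 3) for each of the 425 tested regions, one point per region, with genes grouped by role on the vertical axis. The 93 regions called further down lie at 0.93 to 4.35 and the 21 called further up at -3.15 to -1.01, and the vertical scatter within a gene carries no meaning.

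Several marker lists had shares of regions further down above the 14.9% of all tested regions, and other lists did not. Spiral ganglion neuron markers had 13 of 30 tested regions further down (43.3%) and 2 further up, with a median difference of 0.89, spread over 6 of the 8 genes. Prosensory markers had 9 of 33 down (27.3%) and 1 up (median 0.39). Blood, endothelium and macrophage markers had 5 of 22 down (22.7%) and 1 up (median 0.39). Mesenchyme markers had 2 of 14 down (14.3%) and 1 up (median 0.33). Glia and melanocyte markers had 2 of 25 down (8.00%) and 3 up (median -0.20), and epithelial markers 2 of 29 down (6.90%) and 7 up (median -0.44). The shares of the prosensory and the blood and vessel markers lay nearest to the 21.9% of the guidance genes. In unsorted tissue that 2 labels describe differently (whole organ, duct epithelium), fewer cells of a type and less accessibility per cell cannot be told apart, and the part of these markers in the guidance gene result was not tested.

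Gene length went with the direction. The 32 members of 100 kb or more held 87 of the 93 regions further down and 10 of the 21 further up, among 355 tested regions. The 22 shorter members held 6 down and 11 up among 70. At other genes of 100 kb or more, 18.98% of 15198 tested regions were called further down and 9.19% further up, against 24.5% and 2.82% at the long guidance genes. At other genes under 100 kb the shares were 10.7% and 18.4%, against 8.57% and 15.7% at the short guidance genes. The long members differed from other long genes by a smaller margin than from all regions, and the short members had shares near or below those of other short genes. Near a gene end (within 1 kb), the long members had 16 of 35 tested regions further down and 0 further up, where other long genes had 27.9% of 1800 down and 7.17% up.

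**Figure D2:**
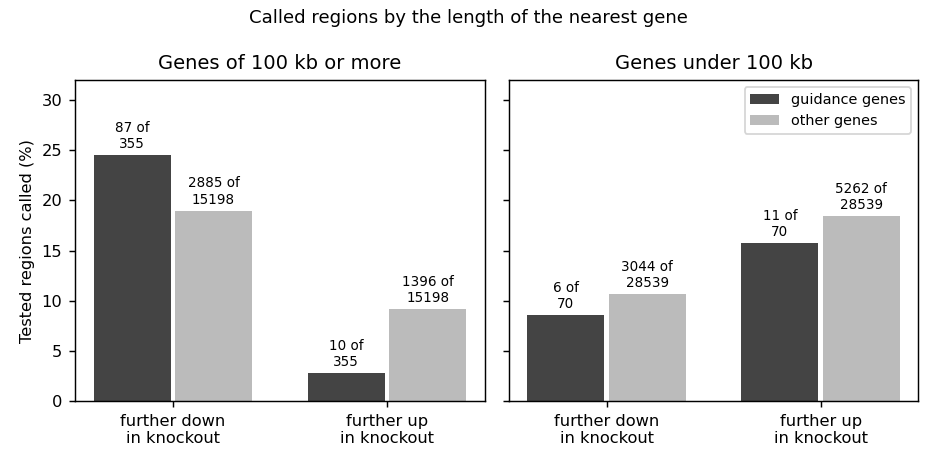
Share of tested regions (percent, vertical axis from 0) called further down or further up in knockout, for regions nearest to guidance genes (dark bars) and to all other coding genes (light bars), split by the length of the nearest gene. Each bar carries its count: 87 of 355 regions at long guidance genes were further down and 10 were further up, while at short guidance genes 6 and 11 of 70 were.

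Peak numbers per gene are given per 100 kb of gene, since a longer gene collects more peaks. Together the 54 genes span 12.9 Mb and had 425, 450 and 477 of the 50000 strongest peaks in wildtype 1 to 3, against 363 and 382 in knockout 1 and 2. Per 100 kb that was 3.29, 3.49 and 3.70 against 2.81 and 2.96. All coding genes had 4.50, 4.41 and 4.33 per 100 kb against 4.60 and 4.59. The summed count of the members was lower in both knockout libraries than in every wildtype library, while that of all genes was slightly higher. An exact permutation test of 3 against 2 libraries cannot give a two-sided p below 0.1.

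The density was highest at Ephb3, a receptor for B-class ephrins, with 10, 11 and 6 wildtype peaks against 7 and 9 knockout peaks over 18.7 kb (46.0 per 100 kb over the 5 libraries). It was lowest at Dcc, the netrin receptor, with 9, 6 and 10 peaks against 5 and 5 over 1098 kb (0.638 per 100 kb). Counted over the whole stretch for which a gene is the nearest coding gene, Dcc was again lowest (0.539) and Sema4c highest (17.5). Of the 53 members with a mean of at least 1 peak, every knockout count lay below every wildtype count in 16 (30.2%, against 9.74% of 14086 genes) and above in 12 (22.6%, against 15.8%).

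A limma fit of log2(peak count + 1) called 12 members with fewer peaks in knockout (22.6%, where 4.09% of genes were called) and 3 with more (5.66%, where 5.33% were). The members are longer than most genes, with a median of 136 kb against 17.5 kb for all coding genes. Gene counts were not split by length, so the part of length in these shares was not tested. Small whole-number counts often tie within a group, so the residual variance was held at no less than that of 1 borderline peak. The variance of each gene is also drawn by limma toward that of genes with a like mean count. An SE can therefore be smaller than the spread of that gene's own counts. The calls depend on that choice: with no such limit 2 members were called with fewer and 4 with more, and among members with at least 5 peaks on average limma then called 0 (14 at an unadjusted p under 0.05). Without knockout 1 the fit called 1 with fewer and 0 with more (11 at an unadjusted p under 0.05), without knockout 2 it called 6 and 1, and without wildtype 3 it called 5 and 2. Gene counts are therefore given as counts, with the adjusted p of this fit in the family paragraphs.

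**Figure D3:**
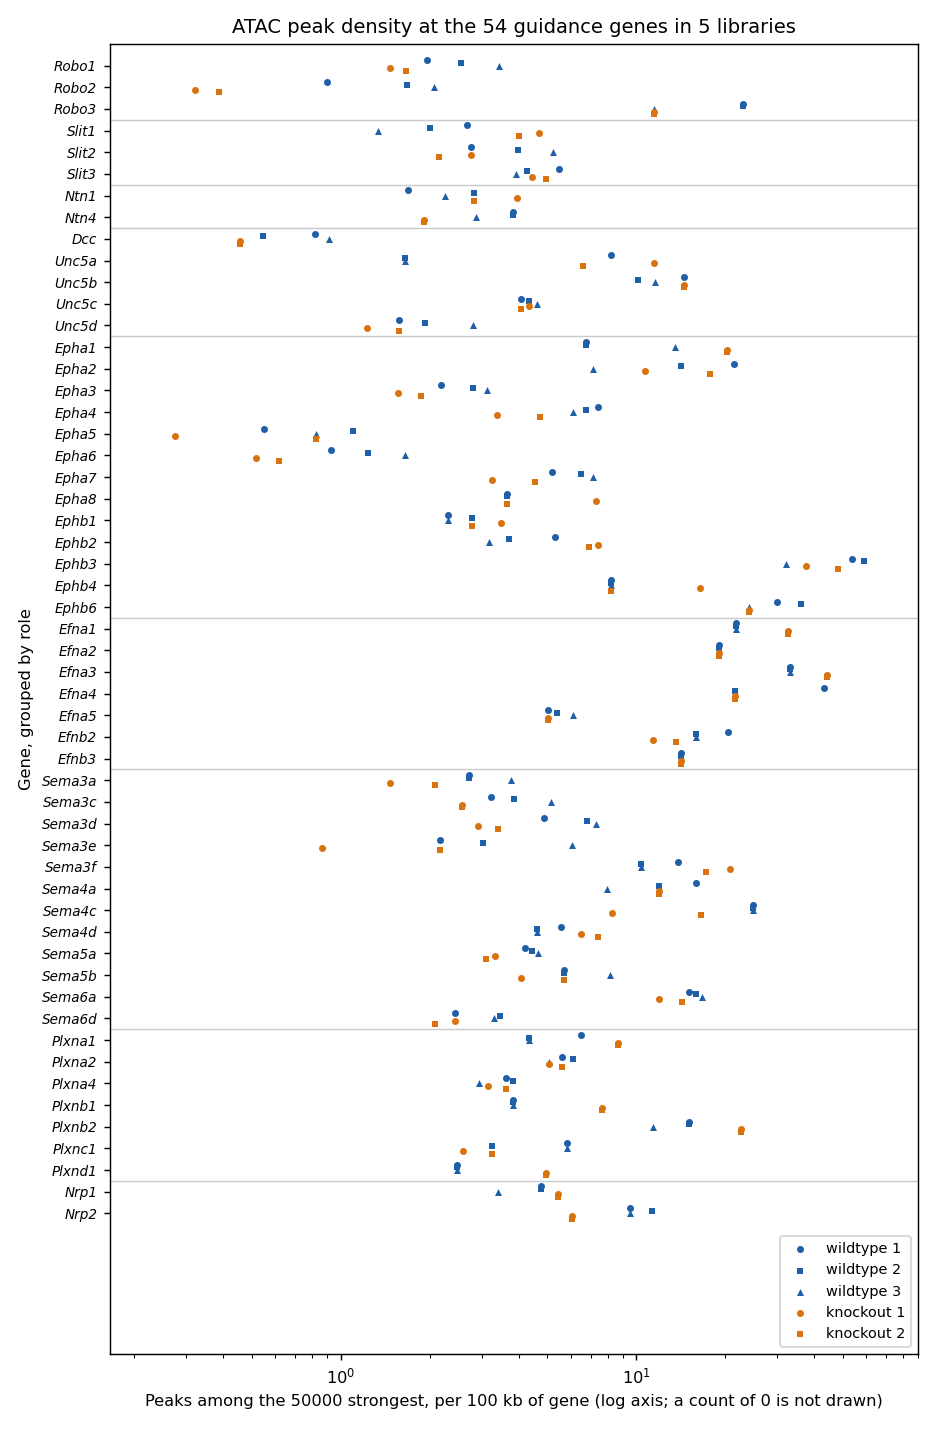
Peaks per 100 kb of gene among the 50000 strongest of each ATAC library (log axis), 1 point per library, with 3 wildtype libraries in blue and 2 knockout libraries in orange and the 54 genes grouped by role. Orange points lie left of all blue points at 16 genes, Robo2 farthest, and right of them at 12.

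The Robo receptors, which bind Slits and mostly mediate repulsion, had 11 of 46 tested regions further down and 0 further up. Robo2 had 14, 26 and 32 wildtype peaks against 5 and 6 knockout peaks over 1555 kb. The difference was -1.87 on the log2(count + 1) scale (SE 0.18, limma adjusted p = 4.1e-21). With no lower limit on the variance its SE was 0.42 and Robo2 was not called (limma adjusted p = 0.13). Both knockout counts lay under the lowest wildtype count. Robo2 also had the most wildtype-only regions, meaning a peak among the 50000 strongest of all 3 wildtype libraries and of no knockout library: 7, of 57 at all members. In the full lists all 7 still had a peak in both knockout libraries, at ranks 54709 to 191131 in knockout 1 and 64806 to 164868 in knockout 2, whereas the wildtype ranks ran from 3452 to 48680. Robo1 had 20, 26 and 35 peaks against 15 and 17 (-0.69, SE 0.17, adjusted p = 0.0012), not called with the 100000 strongest peaks (-0.38, adjusted p = 0.078). Its strongest shift lay inside the gene at chr16:72610558-72611121, with wildtype ranks 365, 626 and 468 and knockout ranks 8551 and 6716 (log2 difference 3.997, SE 0.55, limma adjusted p = 3.0e-05). Robo3, the third member, had 4, 4 and 2 peaks against 2 and 2 and no called region.

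The Slit ligands, which are secreted, did not share a direction. Slit2 had 9, 13 and 17 wildtype peaks against 9 and 7 knockout peaks, overlapping at 9 (-0.61, SE 0.19, adjusted p = 0.020), and 3 of its 9 tested regions were further down. Its promoter region had ranks 4786, 6195 and 5246 in wildtype against 23391 and 26147 in knockout (2.20, SE 0.38, limma adjusted p = 0.00022). Slit1 had 4, 3 and 2 wildtype peaks against 7 and 6 knockout peaks (0.93, SE 0.24, adjusted p = 0.0035). Slit3 had the most knockout-only regions, which are regions in both knockout libraries and no wildtype library, 5 of 44 at all members. Its total was nearly level, with 32, 25 and 23 peaks against 26 and 29 (0.05, SE 0.16).

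Netrin receptors had 9 of 52 tested regions further down and 2 further up, and they include the strongest upward shift. At Unc5c, a repulsive netrin receptor, a region inside the gene at chr3:141509662-141510221 had wildtype ranks 77648, 65135 and 29764 and knockout ranks 7729 and 4645 (-3.15, SE 0.41, limma adjusted p = 1.5e-05). Another 5 of the 18 tested Unc5c regions were further down, so this gene moved both ways. Unc5d, a related receptor, had a region at chr8:29123038-29123556 with wildtype ranks 1265, 1459 and 956 and knockout ranks 16253 and 12613 (3.57, SE 0.46, adjusted p = 1.6e-05). Unc5a had a region further up at chr13:54994519-54995033, from ranks 39059, 71630 and 57445 to 13429 and 25436 (-1.56, SE 0.37, adjusted p = 0.0036), a call lost without knockout 1 (-1.10, adjusted p = 0.19). Its peak counts were 5, 1 and 1 in wildtype against 7 and 4 in knockout, which overlap (1.13, SE 0.27, adjusted p = 0.0012), and with the 100000 strongest peaks the difference was 0.020. Dcc counts differed by -0.61 (SE 0.21, adjusted p = 0.042). The netrins had 2 of 9 tested regions further down, both at Ntn4, and none up.

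Among the Eph receptors, the EphA genes had 15 of 43 tested regions further down and 2 further up, with a median difference of 0.82. The EphB genes had 3 down and 6 up of 35, with a median of -0.12. The difference between the A and B genes was not tested, and 5 of the 8 EphA genes but 2 of the 5 EphB genes were 100 kb or longer. Epha6 held the largest shift of the list, inside the gene at chr16:59717955-59718499. Its wildtype ranks were 635, 242 and 249 and its knockout ranks 10986 and 4316 (4.35, SE 0.63, limma adjusted p = 5.1e-05), so a region among the strongest of wildtype was still a strong peak in knockout. Its fold enrichment, the authors' value within each library, was 18.7, 16.5 and 16.7 against 14.7 and 15.7. Epha6 had 9, 12 and 16 peaks against 5 and 6 (-1.01, SE 0.20, adjusted p = 3.2e-05).

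The promoter of Epha7, whose sequence is given above, had wildtype ranks 452, 234 and 154 and knockout ranks 4002 and 1686 (3.36, SE 0.71, limma adjusted p = 0.0014). The gene had 8, 10 and 11 wildtype peaks against 5 and 7 knockout peaks (-0.61, SE 0.20, adjusted p = 0.031). That call was lost with the 25000 strongest peaks, where the fitted counts did not differ (adjusted p = 1), and with 100000 (-0.51, adjusted p = 0.067). Epha3 had a region at chr16:63856866-63857391, 6784 bp from a start site, with wildtype ranks 1106, 154 and 198 and knockout ranks 5773 and 2906 (3.66, SE 0.74, adjusted p = 0.00098). Epha5 had its promoter at ranks 4964, 2705 and 931 in wildtype against 19710 and 15432 in knockout (2.91, SE 0.53, adjusted p = 0.00036). Epha4 had 11, 10 and 9 peaks against 5 and 7 (-0.66, SE 0.20, adjusted p = 0.015). With the 25000 or the 100000 strongest peaks the Epha4 difference turned to 0.057 and 0.093. Epha3, Epha4, Epha5, Epha6 and Epha7 are all longer than 100 kb.

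Other Eph genes had regions further up in knockout. The promoter of Epha2 had wildtype ranks 31743, 33646 and 30279 and knockout ranks 16265 and 12681 (-1.15, SE 0.35, limma adjusted p = 0.015). Epha8 had a region 4442 bp outside the gene at chr4:136924468-136924977, from ranks 48933, 40634 and 73067 to 9767 and 14997 (-2.12, SE 0.36, adjusted p = 0.00023). Ephb2, a long gene and a receptor for B-class ephrins, had 10, 7 and 6 wildtype peaks against 14 and 13 knockout peaks (0.77, SE 0.19, adjusted p = 0.0023). Its region at chr4:136841010-136841551 went from ranks 34526, 67560 and 44140 to 17064 and 17338 (-1.45, SE 0.36, adjusted p = 0.0045), a call lost without knockout 1 (-1.43, adjusted p = 0.063). In all of these, both knockout ranks were better than every wildtype rank.

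Ephrins, the membrane-bound Eph ligands, had 10 of 30 tested regions further down and 2 further up. The 10 lay at only 2 of the 7 genes, with 7 of 15 at Efna5 and 3 of 6 at Efnb2. Efna5 peak counts were 14, 15 and 17 in wildtype against 14 and 14 in knockout, so its regions changed rank while their number overlapped. Efna2 had a region 9375 bp outside the gene at chr10:80199385-80199947, with wildtype ranks 22993, 31568 and 48309 and knockout ranks 6930 and 8894 (-2.06, SE 0.38, limma adjusted p = 0.00042).

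Semaphorins had 28 of 107 tested regions further down (26.2%, against 33.3% at ephrins and 14.9% of all regions) and 1 further up, at Sema4a. The class 3 semaphorins, which are secreted, had 12 down and 0 up of 38, and the transmembrane classes 5 and 6 had 16 down and 0 up of 59. Class 4 had 0 down and 1 up of 10. Inside Sema3c a region at chr5:17689628-17690148 had wildtype ranks 1711, 1344 and 104 and knockout ranks 16135 and 7515 (4.15, SE 0.79, limma adjusted p = 0.00055). The Sema3c promoter had ranks 3828, 2998 and 4543 in wildtype against 28171 and 18344 in knockout (2.61, SE 0.40, adjusted p = 8.8e-05). Promoter and intragenic region thus shifted together. The Sema3d promoter had ranks 1441, 2540 and 998 against 9077 and 6230 (2.29, SE 0.50, adjusted p = 0.0017).

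Peak counts were called lower in knockout at 3 of the 5 class 3 genes, where 4.09% of all genes tested were. Of these 5 genes, 4 are 100 kb or longer, and the share among other long genes was not computed. Sema3d had 10, 14 and 15 against 6 and 7 (-0.89, SE 0.19, adjusted p = 0.00025). Sema3a, a classic repellent, had 13, 13 and 18 against 7 and 10 (-0.72, SE 0.19, adjusted p = 0.0027). Sema3e had 5, 7 and 14 against 2 and 5, which meet at 5 (-1.08, SE 0.22, adjusted p = 8.6e-05). With the 100000 strongest peaks Sema3d (-0.52, adjusted p = 0.053) and Sema3e (-0.33, adjusted p = 0.33) were not called. Sema3a was not called without wildtype 3 (-0.58, limma adjusted p = 0.069). With no lower limit on the variance, Sema3a (limma adjusted p = 0.25), Sema3d (0.15) and Sema3e (0.50) all lost the call. Sema3f, the one short gene of the class, had 4, 3 and 3 in wildtype against 6 and 5 in knockout (0.59, SE 0.24, adjusted p = 0.12).

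Plexins and neuropilins, which receive semaphorins, showed no common direction. The plexins had 5 of 47 tested regions further down and 4 further up, with a median difference of -0.01. Plxnc1 had 9, 5 and 9 peaks against 4 and 5, which meet at 5 (-0.62, SE 0.22, limma adjusted p = 0.044), not called with 25000 (adjusted p = 0.18) or 100000 peaks (adjusted p = 0.22). Nrp2 had 11, 13 and 11 wildtype peaks against 7 and 7 knockout peaks (-0.66, SE 0.19, adjusted p = 0.012), and it was the one gene called both with and without the limit on the variance. Without the limit its SE was 0.090. Its knockout counts were tied, the case the limit was added for, so the call without it adds no support. Nrp2 was not called with the 25000 (-0.32, adjusted p = 0.59) or the 100000 strongest peaks (-0.26, adjusted p = 0.45). Nrp1 had 7, 7 and 5 against 8 and 8, and a knockout-only region at chr8:128551335-128551839, 45859 bp outside the gene, with wildtype ranks 58854, 74368 and 65883 and knockout ranks 17974 and 23264 (-1.69, SE 0.34, adjusted p = 0.00086), a call lost without knockout 1 (-1.51, adjusted p = 0.056). The 2 neuropilins therefore did not move alike.

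**Figure D4:**
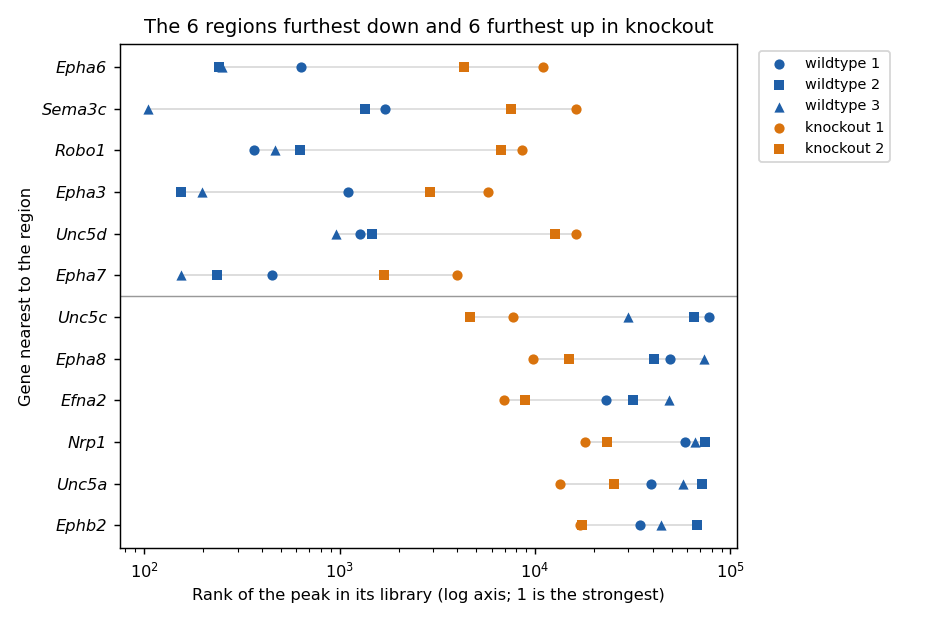
Rank in each of the 5 ATAC libraries (log axis, rank 1 is the strongest) of the 6 member regions shifted furthest down and the 6 shifted furthest up in knockout, with wildtype libraries in blue and knockout libraries in orange. Blue and orange points do not overlap in any of the 12, and the 6 upper regions had wildtype ranks of 104 to 1711.

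Presence and absence among the strongest peaks was counted as well. Of the 685 member regions, 57 were wildtype-only (8.32%, where 5.79% of all assigned regions were), 44 were knockout-only (6.42%, against 8.48%) and 222 were shared by all 5 libraries (32.4%, against 39.0%). Without wildtype 1 the wildtype-only count was 95. The wildtype-only regions lay at 28 genes and the knockout-only regions at 29. Most were ranked lower rather than missing in the other genotype. Of the 57, the complete knockout lists both held a peak at 48 and neither did at 3, at Sema4c, Sema3a and Slit2. Of the 44, the complete wildtype lists held a peak in all 3 libraries at 16 and in no library at 1, at Unc5c. Overlapping peaks of a library were merged, and only the strongest summit of each merged peak was kept. A missing peak here thus means no such summit in the region, and does not show closed chromatin.

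Sox4 sites, defined as peaks among the 20000 strongest of at least 2 of the 3 CUT&RUN replicates, numbered 10 at 9 members. That is 16.7% of the 54 genes (exact 95% binomial interval 7.92% to 29.3%, counting error only), where 6.47% of all coding genes had a site. Long genes had a site more often: 14.7% of all genes of 100 kb or more had a site, against 6 of the 32 long members (18.8%). Per 100 kb the members had 1.37, 1.29 and 1.29 Sox4 peaks in replicates 1 to 3, under the 1.45, 1.46 and 1.53 of all genes. Most Sox4 peaks at these genes were seen in 1 replicate alone: the members had 177, 167 and 167 peaks for 10 sites. Dcc, for example, had 11, 11 and 11 peaks and no site. Required in both remaining replicates, 6 sites were left without replicate 1, 4 without replicate 2 and 4 without replicate 3.

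In 2 sites a peak was present in all 3 replicates. One lay inside Slit3 at chr11:35282824-35283650, at Sox4 ranks 10197, 11208 and 796. The ATAC region there had wildtype ranks 6833, 6103 and 8370 and knockout ranks 23615 and 30702 (1.94, SE 0.37, limma adjusted p = 0.00063), so it stood further down in knockout. The other lay inside Plxna4, a semaphorin receptor, at chr6:32232413-32233078, at Sox4 ranks 11320, 893 and 16450. Its ATAC ranks were 2263, 2631 and 3117 in wildtype against 2631 and 3641 in knockout, which overlap (0.23, SE 0.47, adjusted p = 0.75).

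The remaining 8 sites were present in 2 replicates. Efnb2 had the single best Sox4 rank, 280 in replicate 2, with 6141 in replicate 3, at chr8:8647550-8648077 inside the gene. The ATAC region there went from wildtype ranks 3491, 6798 and 4476 to knockout ranks 13794 and 15527 (1.63, SE 0.41, limma adjusted p = 0.0050). Sema6a had a site 3383 bp outside the gene at Sox4 ranks 2405 and 1665 in replicates 1 and 2. Its ATAC ranks were 7545, 4690 and 8546 in wildtype against 19880 and 16871 in knockout (1.45, SE 0.39, adjusted p = 0.0081). With the Slit3 region these were the 3 site regions called further down, and none was called further up. The shares of all Sox4 site regions called either way were not computed, so these counts only describe the list.

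Sema4c, a transmembrane semaphorin, had its site at chr1:36557457-36558026, at Sox4 ranks 1904 in replicate 1 and 6115 in replicate 3. This was the only one of the 58 promoter windows that overlapped a Sox4 site. The overlapping ATAC region was wildtype-only, at ranks 29345, 35463 and 47059. Neither full knockout list had the strongest summit of a merged peak there. A weaker knockout summit merged into a neighbouring peak would not be seen. The window belongs to the downstream one of 2 starts of the gene. At the upstream start the region was shared, with a difference of 0.92 (SE 0.37, limma adjusted p = 0.062).

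The other sites showed no called difference in open chromatin. The second Slit3 site, at chr11:35267578-35268309, had Sox4 ranks 2862 and 7013 in replicates 1 and 3, and ATAC ranks of 5675, 11054 and 15337 against 10664 and 16284 (0.42, SE 0.42, limma adjusted p = 0.48). The Robo1 site, at chr16:72693708-72694264, had Sox4 ranks 1668 and 13993 in replicates 2 and 3, and ATAC ranks of 3079, 3857 and 4548 against 6973 and 3982 (0.48, SE 0.45, adjusted p = 0.43). The Sema4d site, at chr13:51730228-51730952, had Sox4 ranks 19414 and 11394 in replicates 2 and 3, the weakest pair of the 10, and ATAC ranks of 19731, 15331 and 36424 against 23834 and 26835 (0.18, SE 0.38, adjusted p = 0.74). In all 3 the knockout ranks overlapped the wildtype ranks.

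At Ephb6, an Eph receptor without kinase activity, the site at chr6:41604586-41605113 was 398 bp from the start, at Sox4 ranks 3367 and 18010 in replicates 2 and 3. Its ATAC region held a kept summit in wildtype 1, wildtype 2 and knockout 2 alone, at ranks 10984, 7983 and 8924. The region at the nearby promoter window, chr6:41605261-41605560, had ranks 3091, 2843 and 3120 in wildtype and 12875 in knockout 1, with none in knockout 2. A missing rank at the site therefore does not show that it was closed in that library. The Robo2 site, at chr16:73875333-73876295, lay 15681 bp outside the gene at Sox4 ranks 2275 and 1283 in replicates 1 and 2 and in no ATAC region of any library. Regions open in all 3 wildtype libraries held 8 of the 10 sites (80.0%, exact interval 44.4% to 97.5%), as did 64.1% of the 1467 sites with a gene.

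**Figure D5:**
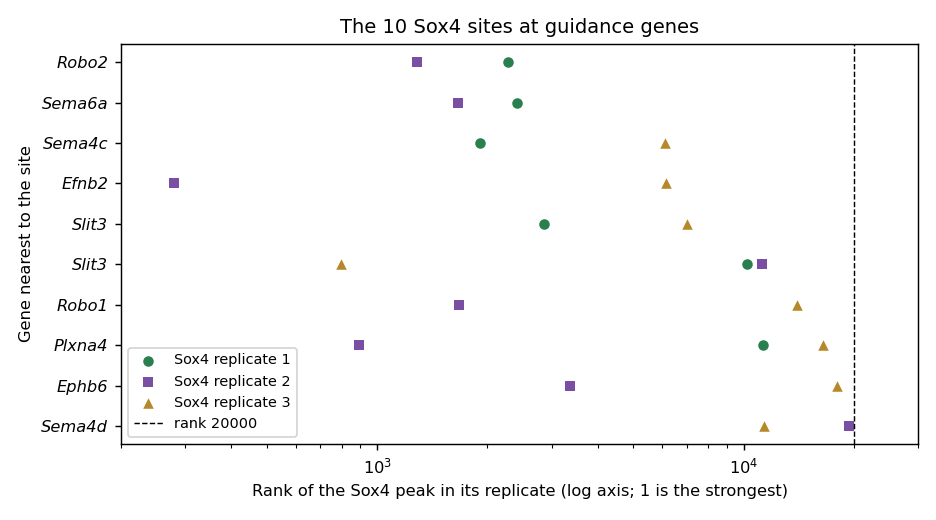
Rank of the Sox4 peak in each CUT&RUN replicate (log axis, rank 1 is the strongest) at the 10 sites nearest to guidance genes, ordered by the worse rank, with the limit of 20000 dashed. Only one Slit3 site and the Plxna4 site carry 3 points.

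Other guidance genes had shares of regions further down close to the 14.9% of all tested regions. Of 32 further ligands and receptors, 29 were autosomal, and 20 of their 126 tested regions were further down (15.9%) and 6 further up (4.76%, median 0.17). Of 32 intracellular signalling genes, 31 were autosomal, with 39 of 236 down (16.5%) and 20 up (8.47%, median 0.08). Both shares further up lay below the 14.2% of all tested regions. That of the further ligands and receptors lay near the 4.94% of the 54 members, so few regions further up were not particular to the members. In the gene count fit with the variance limit, the first list had 1 gene with fewer peaks, Boc, a netrin and hedgehog co-receptor (13, 15 and 14 against 10 and 8), and 2 with more, Ntng2 (3, 1 and 1 against 6 and 4) and Neo1, a netrin receptor related to Dcc (2, 1 and 1 against 5 and 4). The second had 1 with fewer, the kinase gene Fyn (14, 12 and 16 against 6 and 8), and 3 with more, Kalrn (18, 14 and 11 against 27 and 23), Ablim1 (6, 3 and 2 against 11 and 9) and Vav2.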

How the data were processed

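The authors deposited MACS2 peak lists, per the submitters' processing notes, which also name STAR and deepTools, UMI-tools for Sox4 alone, no versions, and the builds mm10 and GRCm38. Each line held the authors' fold enrichment over local background, a ratio, and the -log10 p and -log10 q the authors deposited for that peak. These are each peak's own values within its library. Single-cell tables were not used.

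Overlapping peaks were merged per library, keeping the strongest summit of each merged peak, and ranked by -log10 p on the 19 autosomes. Merging left 165038 of 196536, 145099 of 166874 and 173032 of 196345 lines in wildtype 1 to 3. In knockout 1 and 2 it left 208902 of 293665 and 192810 of 261289. The 50000 strongest ATAC and 20000 strongest Sox4 peaks, cut to 250 bp either side of their summits (501 bp), were joined into regions across libraries, and each region went to its nearest coding gene if within 100 kb. Exons and introns were not assigned. Differences in log2 rank and in log2(peaks per gene + 1) were fitted with limma 3.58.1 in R 4.3.3, both tested on simulated data. The gene fit as planned had no lower limit on the variance (0.25 peaks squared), which was added after seeing the data, as was the split by gene length. The near-threshold regions were those of Efnb2 (adjusted p = 0.0495) and Sema3a (0.0496) inside, and Robo1 (0.05002) and Plxna4 (0.0501) outside.

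The rule for named genes accounts for all 54. Values in every library are given for the 6 regions shifted furthest each way, genes called in the gene fit, members with the most wildtype-only or knockout-only regions, Sox4 sites, and the extremes of peak density. Members and lists were chosen with earlier results of these data known.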

Additional observations from a re-analysis of the deposited data

How the results depend on the processing

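Rank differences kept their direction in all alternatives run for the 12 named regions (7 of them could be fitted at rank 50000 or better), and 3 (Unc5a, Nrp1 and Ephb2) lost the call without knockout replicate 1. Of the member regions, 60 were further down and 11 further up at rank 50000 or better in all libraries, and 50 were further up with absent ranks set to 100000. On centred log2 of -log10 p, 133 were further down and 19 further up, while over all regions the calls were 10348 and 4807 and the median shifted by 0.18; ranking by fold shifted it by 0.26. Leaving out a library gave 42 to 111 further down and 4 to 31 further up, lowest without knockout replicate 1 (42 and 4) and then without knockout replicate 2 (58 and 9).

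Wildtype-only regions numbered 34 with the 25000 strongest peaks and 66 to 95 leaving out a library (95 without wildtype replicate 1). Knockout-only regions numbered 12 with 25000, 88 with 100000, and 48 to 61 leaving out a library.

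With no lower limit on the variance 2 genes had fewer peaks, and with at least 5 peaks as well 0 had fewer and 0 more (14 at an unadjusted limma p under 0.05). Leaving out a library gave 1 to 12 with fewer and 0 to 3 with more: 5 with fewer without wildtype replicate 3, 6 and 1 without knockout replicate 2, and 1 and 0 without knockout replicate 1 (11 at an unadjusted p). Of the 15 called genes, 3 lost the call with the 25000 strongest peaks (12 could be tested) and 7 with 100000, and Epha4 reversed in both (0.057 and 0.093 on the log2 scale). The median density was 5.31 peaks per 100 kb of gene and 3.03 per 100 kb of nearest stretch.

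Sox4 sites numbered 5 with the 10000 strongest peaks, 31 with 39000, 2 in all 3 replicates, 16 from the further list of replicate 1, and 4 to 6 leaving out a replicate (6 without replicate 1, 4 without replicate 2 and 4 without replicate 3).

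Wildtype and knockout libraries share only replicate numbers 1 and 2, whose deviations correlated at 0.12 and 0.09. With 2 knockout libraries the crossed pairs must mirror such values (-0.12 and -0.09). The correlations therefore cannot show whether the numbers pair samples. With the replicate block 102 regions were further down and 34 further up, and 1 gene had fewer and 0 more peaks (13 at an unadjusted limma p under 0.05). Peak lists carry no read depth, so counting error per peak is unknown.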
